A study of Mus musculus with 60 samples.

Results

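N6-methyladenosine (m6A) is the most common internal mark on messenger RNA. Writers place it: METTL3 is the catalytic subunit, METTL14 its partner in binding RNA, WTAP the adaptor that holds the complex in nuclear speckles, and RBM15 an RNA-binding subunit that brings the complex to its sites. Erasers, the dioxygenases ALKBH5 and FTO, remove methyl groups from RNA. Readers of the YTH family bind the mark: YTHDF1, YTHDF2 and YTHDF3 act in the cytoplasm, where YTHDF2 is known for directing marked transcripts to decay, and YTHDC1 acts in the nucleus. In mouse embryos the pathway is known for clearing pluripotency transcripts as cells leave that state.

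The 10 genes of this pathway described here were taken by symbol from a table of 23127 genes, and all 10 were found. They are the writer genes Mettl3, Mettl14, Wtap and Rbm15, the eraser genes Alkbh5 and Fto, and the reader genes Ythdf1, Ythdf2, Ythdf3 and Ythdc1. The family was chosen by the fall of Alkbh5 between the DMSO and EPZ005687 libraries, which was already known when it was taken up. Values under EPZ005687 and DMSO are therefore a description. Calls of the fit across all genes are counted beside the share of all genes called, with no p for a member, and are not evidence for the family.

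The RNA came from explants of ICR mouse embryos kept for 48 hours in N2B27 medium, either with EPZ005687 or with an equal volume of its solvent DMSO. EPZ005687 inhibits EZH2, the enzyme of Polycomb repressive complex 2 that methylates histone H3 on lysine 27. Each treatment has 1 library from the anterior (A) and 1 from the posterior (P) part of the embryo proper and 1 from extraembryonic tissue (ExE), 6 libraries in all. Values for the 3 regions are listed in that order throughout. The series' other 54 samples, which profile H3K27me3, ChIP input and DNA methylation, were not analysed here. Stage, dose and the number of embryos behind an RNA library are not in the labels.

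Totals ran from 1000342 to 5812535 counts per library, and all 10 genes passed the filter on low counts. Levels are counts scaled to a common library total after TMM scaling, which assumes that most genes are alike between libraries (CPM below). A count of 3 was worth between 0.674 and 2.38 CPM. Since each region and treatment has 1 library, each mean ± SD (n = 3) spans the regions of an arm and not repeats of the treatment. The labels were checked against markers. Anterior neural genes summed to 796 CPM in A with DMSO and 227 CPM in A with EPZ005687, the highest of their arms. Of 8 trophoblast progenitor genes, 4 and 1 had 0 counts in ExE with DMSO and EPZ005687, Cdx2 among them in both, while 8 visceral endoderm genes summed to 29688 and 11091 CPM there. Between these lists, the ExE libraries were thus marked by the visceral endoderm genes and not by the trophoblast progenitor genes. In ExE with EPZ005687 a list of 6 primitive blood genes summed higher still, to 28334 CPM, against 549.5 CPM in ExE with DMSO. The visceral endoderm genes also summed to 8513 and 7502 CPM in P, and in A to 70.3 CPM with DMSO and 2491 CPM with EPZ005687, of which 2302 CPM were the alpha-fetoprotein gene Afp. The 8 primitive streak genes together reached 14.9 CPM (A) and 31.1 CPM (P) under DMSO. Under EPZ005687 they reached 170 CPM (A) and 84.6 CPM (P), so P was not the higher region there, and T alone gave 161 CPM of the sum in A.

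Of the 10 promoters, 8 were in the RefSeq table (GRCm38.p6, the assembly also called mm10). Those of the eraser pair and of the 3 other members that fell with EPZ005687 are shown, from 250 bases before to 50 bases after the start used in that table, 5′ to 3′ on the gene's strand. For Fto and Rbm15 that start lies inside the span of the gene given below. Wtap has several starts in the table, and the outermost is shown. Polycomb complexes are known to act at promoters rich in CpG, and CpG dinucleotides are in capitals.
Alkbh5 (chr11:60537433-60537732, plus strand): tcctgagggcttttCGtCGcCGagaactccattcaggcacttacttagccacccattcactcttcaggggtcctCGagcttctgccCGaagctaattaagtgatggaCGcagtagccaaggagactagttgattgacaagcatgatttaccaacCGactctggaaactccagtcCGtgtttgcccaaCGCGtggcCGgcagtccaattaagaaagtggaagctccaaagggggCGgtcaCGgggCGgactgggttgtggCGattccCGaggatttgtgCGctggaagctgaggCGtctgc
Fto (chr8:91313275-91313574, plus strand): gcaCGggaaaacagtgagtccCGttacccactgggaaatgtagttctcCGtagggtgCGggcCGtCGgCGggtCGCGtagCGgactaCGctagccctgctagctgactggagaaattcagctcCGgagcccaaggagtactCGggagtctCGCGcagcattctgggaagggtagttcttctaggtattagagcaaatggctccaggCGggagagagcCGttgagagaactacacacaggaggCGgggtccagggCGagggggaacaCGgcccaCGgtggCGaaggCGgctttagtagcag
Rbm15 (chr3:107333240-107333539, minus strand): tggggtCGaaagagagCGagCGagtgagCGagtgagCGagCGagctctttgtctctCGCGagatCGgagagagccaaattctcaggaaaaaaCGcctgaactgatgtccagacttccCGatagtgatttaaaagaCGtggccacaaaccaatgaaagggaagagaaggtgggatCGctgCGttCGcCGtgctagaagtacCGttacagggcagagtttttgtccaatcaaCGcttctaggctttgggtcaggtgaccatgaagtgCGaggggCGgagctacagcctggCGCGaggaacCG
Wtap (chr17:12992494-12992793, minus strand): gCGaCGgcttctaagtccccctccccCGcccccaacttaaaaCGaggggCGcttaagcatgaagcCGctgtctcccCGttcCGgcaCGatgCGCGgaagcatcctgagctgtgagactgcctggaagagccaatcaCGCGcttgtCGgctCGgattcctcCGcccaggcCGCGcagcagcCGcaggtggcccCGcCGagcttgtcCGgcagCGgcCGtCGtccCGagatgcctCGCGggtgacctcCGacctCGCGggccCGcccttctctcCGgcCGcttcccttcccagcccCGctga
Ythdf2 (chr4:132212207-132212506, minus strand): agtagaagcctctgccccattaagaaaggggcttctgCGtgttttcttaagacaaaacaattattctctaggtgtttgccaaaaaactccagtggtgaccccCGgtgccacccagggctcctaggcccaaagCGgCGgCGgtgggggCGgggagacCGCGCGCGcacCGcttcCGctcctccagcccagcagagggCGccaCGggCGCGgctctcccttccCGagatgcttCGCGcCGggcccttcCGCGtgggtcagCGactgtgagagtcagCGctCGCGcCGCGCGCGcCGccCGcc
The promoter windows held 18 CpG for Alkbh5, 23 for Fto, 23 for Rbm15, 35 for Wtap and 32 for Ythdf2. The other matched windows held 17 for Mettl3, 35 for Ythdc1 and 37 for Ythdf1. Over the 10485 tested genes with a promoter in the table the median was 20, with quartiles at 10 and 28. The CCAAT motif, searched as CCAAT on both strands, was found in the windows of Alkbh5, Rbm15, Wtap and Ythdf1 and in 38.8% of all of them. CCGGAA, searched on both strands, was found for Mettl3 and Wtap and in 26.3% of all windows. TATAAA was in none of the 8 windows and in 7.99% of all. These matches describe the letters only. The CpG numbers of the called genes (18 to 35) and of the others (17 to 37) overlapped.

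Alkbh5 lies on chromosome 11 from 60537683 to 60558512. With DMSO it had 1979, 5816 and 11673 counts, or 1179.8, 1963 and 2623 CPM. With EPZ005687 it had 42, 98 and 53 counts, which is 33.4, 46.8 and 21.6 CPM. Every DMSO library was above every EPZ005687 library, and the lowest DMSO value was in A, the highest in ExE. The means were 1922 ± 723 and 33.9 ± 12.6 CPM (SD, n = 3), and the fitted log2 fold change was -5.81 (SE 0.72), the fifth most negative of 13744 genes tested. Within single regions the log2 ratio was -5.11 in A (95% interval of counting error -5.62 to -4.70), -5.37 in P (-5.69 to -5.10) and -6.87 in ExE (-7.34 to -6.54). The nearest annotated gene on the side of lower coordinates, Myo15 with an end 9314 bases away, had 20, 15 and 46 counts with DMSO against 19, 73 and 61 under EPZ005687.

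Fto, the other eraser, removes methyl groups from m6A and from the related cap-adjacent mark m6Am. It lies on chromosome 8 from 91313367 to 91668433. Its levels were 20.3, 30.4 and 37.5 CPM with DMSO and 31.8, 21.5 and 22.8 CPM with EPZ005687. The arms overlapped, with a higher value in A and lower values in P and ExE under EPZ005687. The fitted log2 fold change was -0.20 (SE 0.73), so the eraser genes stood 1 on each side of the call. In P the interval of the ratio (-1.05 to 0.03) included no difference, and in ExE it did not (-1.18 to -0.27). With library totals as the scaling the ratio in ExE was -0.01 in place of -0.70.

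**Figure D1:**
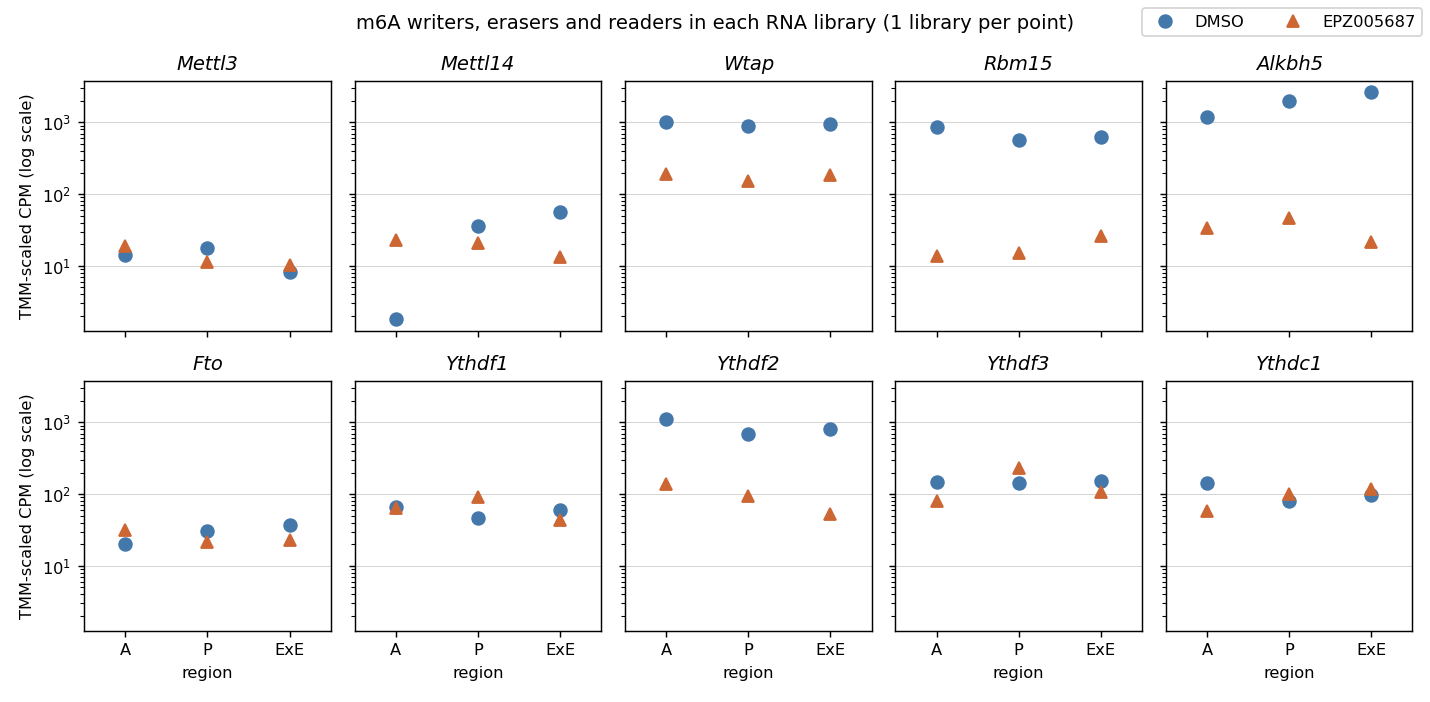
TMM-scaled CPM (log axis) of the 10 members in the 3 regions, with circles for DMSO and triangles for EPZ005687, 1 library per point. For Alkbh5, Rbm15, Ythdf2 and Wtap every circle lies above every triangle, and for the other 6 genes the arms overlap.

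Among the writers, Rbm15 and Wtap were lower with EPZ005687 in all 3 regions, and Mettl3 and Mettl14 were not. Rbm15 and Wtap also had much higher DMSO means, 686 and 956 CPM, against 13.3 CPM for Mettl3 and 31.3 CPM for Mettl14. Rbm15 (chromosome 3, 107305511 to 107334460) had 1445, 1675 and 2803 counts with DMSO, or 861, 565 and 630.0 CPM. With EPZ005687 it had 17, 32 and 64 counts, or 13.5, 15.3 and 26.1 CPM. The highest EPZ005687 value lay far below the lowest DMSO value, and the order of regions was not that of Alkbh5: A was highest with DMSO and ExE with EPZ005687. Its means were 686 ± 156 and 18.3 ± 6.79 CPM (SD, n = 3), with a fitted log2 fold change of -5.24 (SE 0.61). The log2 ratios in single regions were -5.91 in A, -5.14 in P and -4.55 in ExE. Slc16a4 overlaps Rbm15 in the annotation. It had 5 to 50 counts per library, and whether the counting used strand is not given in the sources used here.

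Wtap (chromosome 17, 12966799 to 12992543) stood at 1028, 878 and 962 CPM with DMSO. Under EPZ005687 the values were 191, 152 and 187 CPM. With TMM scaling it was the member with the narrowest spread of ratios over the regions, at -2.43, -2.53 and -2.36 on the log2 scale in the same order. With library totals the ratios were -2.00, -2.36 and -1.65, a spread near that of Ythdf2 (-2.57, -2.70 and -3.25). Its fitted log2 fold change was -2.44 (SE 0.52), with arm means of 956 ± 75.1 and 177 ± 21.7 CPM (SD, n = 3).

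Mettl3, which carries the methyltransferase activity (chromosome 14, 52294841 to 52308741), had 24, 52 and 36 counts with DMSO against 24, 24 and 25 under EPZ005687. That is 14.3, 17.6 and 8.09 CPM against 19.1, 11.5 and 10.2 CPM, so the arms overlapped. At this depth each region's interval of the ratio included 0, from -0.46 to 1.29 in A, from -1.38 to 0.11 in P and from -0.47 to 1.11 in ExE. Its fitted log2 fold change was 0.04 (SE 0.99), so that a 2-fold change in either direction was not detectable. The gene Tox4 overlaps Mettl3 in the annotation, with 53, 89 and 163 counts with DMSO against 60, 36 and 61 under EPZ005687. These are more than the counts of Mettl3 in every library, and whether the counting used strand is not given.

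Mettl14 (chromosome 3, 123368295 to 123385990) was the least even member. It had 3 counts in A with DMSO against 108 in P and 247 in ExE, which is 1.79, 36.5 and 55.5 CPM. With EPZ005687 it had 29, 43 and 33 counts, or 23.0, 20.6 and 13.4 CPM. The log2 ratio was 3.20 in A (interval 1.998 to 6.05), where it rests on the 3 counts of the DMSO library, -0.80 in P (-1.37 to -0.30) and -1.98 in ExE (-2.62 to -1.52). With library totals as the scaling the ratios were 3.62, -0.64 and -1.30. The regions thus differed in direction, and the fitted log2 fold change of -0.15 (SE 1.19) averages over them. It was -1.41 without A DMSO and -1.43 without A EPZ005687, and 1.19 without ExE DMSO, 1.18 without ExE EPZ005687 and 1.22 with A and P only. In that library 14754 genes had at least 1 count, the fewest of the 6 libraries, against 19576 in A with EPZ005687.

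Of the 3 cytoplasmic reader genes, Ythdf2 alone did not overlap between the arms. Ythdf2 (chromosome 4, 132184916 to 132212256) had 1887, 2033 and 3647 counts with DMSO, or 1125, 686 and 820 CPM. With EPZ005687 it had 177, 196 and 128 counts, or 141, 93.7 and 52.1 CPM. A was the highest region in both arms. The fitted log2 fold change was -3.28 (SE 0.56), and the ratio was larger in size in ExE (-3.95, interval -4.24 to -3.72) than in A (-2.99, -3.23 to -2.78) or P (-2.86, -3.09 to -2.66).

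Ythdf1, the reader known for promoting translation (chromosome 2, 180904377 to 180920936), stood at 65.6, 46.9 and 60.7 CPM with DMSO and 64.4, 90.3 and 43.6 CPM with EPZ005687. Ythdf3 (chromosome 3, 16183148 to 16217037) stood at 148, 142 and 155 CPM with DMSO, the most even DMSO values of any member. Under EPZ005687 the values were 79.5, 233 and 107 CPM. For both genes P was the highest EPZ005687 library and lay above all 3 DMSO libraries. The log2 ratio in P was 0.93 for Ythdf1 (interval 0.62 to 1.27) and 0.71 for Ythdf3 (0.52 to 0.91). In ExE it was -0.47 for Ythdf1 and -0.53 for Ythdf3, which became 0.23 and 0.17 with library totals as the scaling. The 3 Ythdf genes are close paralogs, and how reads shared between them were counted is not given in the sources used here.

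Ythdc1, the nuclear reader that acts in splicing and export (chromosome 5, 86803980 to 86836659), stood at 142, 79.0 and 95.7 CPM with DMSO. Under EPZ005687 the values were 58.0, 101 and 120 CPM, so that its highest region with DMSO was its lowest with EPZ005687. The log2 ratio was -1.28 in A (interval -1.69 to -0.91) and 0.36 and 0.32 in P and ExE. With library totals as the scaling the ratios were -0.86, 0.52 and 1.02, so that their size depended on the scaling.

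**Figure D2:**
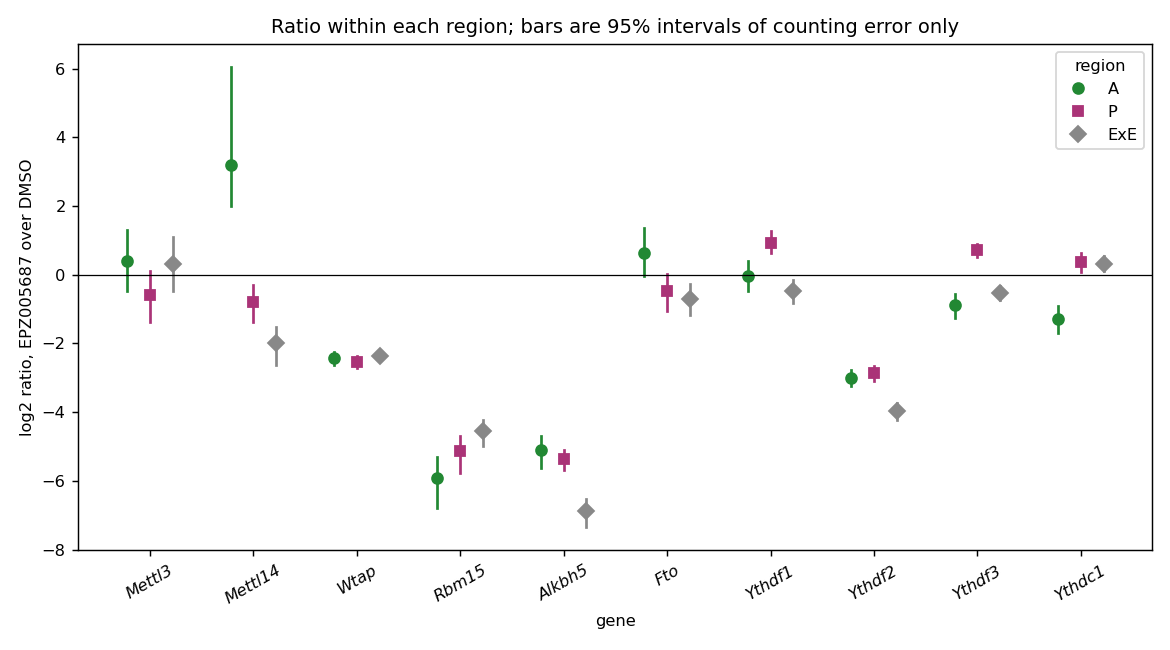
Log2 ratio of EPZ005687 over DMSO for each member in A (circles), P (squares) and ExE (diamonds), with 95% intervals that cover counting error only. Wtap, Rbm15, Alkbh5 and Ythdf2 lie between -2.36 and -6.87 in every region, and the other 6 genes lie on both sides of 0.

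Counted over the family, 4 of 10 members were called lower and 0 higher with EPZ005687 (edgeR, adjusted p under 0.05), where 1.48% of 13744 genes were called lower and 0.0509% higher. DESeq2 called the same 4 lower, and 3.11% of all genes lower and 1.05% higher. The same 4 were at least 2-fold lower in each of the 3 regions, as were 4.45% of all genes tested, and none was at least 2-fold higher in each region, as were 4.54%. Every DMSO library lay above every EPZ005687 library for these 4, as for 8.75% of all genes tested, and the reverse held for 0 members and 8.82% of all. Nothing is read from these shares, since the family was taken up with this contrast known. The 4 called members also had the highest DMSO means of the 10, from 686 CPM (Rbm15) to 1922 CPM (Alkbh5). The highest of the others was 148 CPM (Ythdf3). The part of level in the calls was not tested. The median log2 fold change was -0.22 over the members and 0.20 over all genes tested. With library totals the all-gene median was 0.63, and 6 of the 10 members were positive in place of 2, so that Fto, Mettl14, Ythdf3 and Ythdc1 changed sign while Alkbh5, Rbm15, Ythdf2 and Wtap stayed negative.

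The call of Wtap was lost without A DMSO, ExE DMSO, A EPZ005687, P EPZ005687 or ExE EPZ005687, with library totals and without region in the fit, while its log2 fold change stayed between -2.48 and -2.01. The call of Ythdf2 was lost without ExE EPZ005687. With A and P only, an alternative chosen after the values were seen, 2 of 10 members were called lower, Alkbh5 and Rbm15, and 0.701% of all genes tested in that fit. Over the 12 alternatives the log2 fold change of Alkbh5 ran from -6.14 to -5.23 and that of Rbm15 from -5.58 to -4.81. Some of the 12 are nearly the same fit. Alkbh5 had -6.13 without A DMSO and -6.14 without A EPZ005687. It had -5.26 without ExE DMSO, -5.24 without ExE EPZ005687 and -5.23 with A and P only. These refits use the libraries by which the family was chosen and are no independent check.

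**Figure D3:**
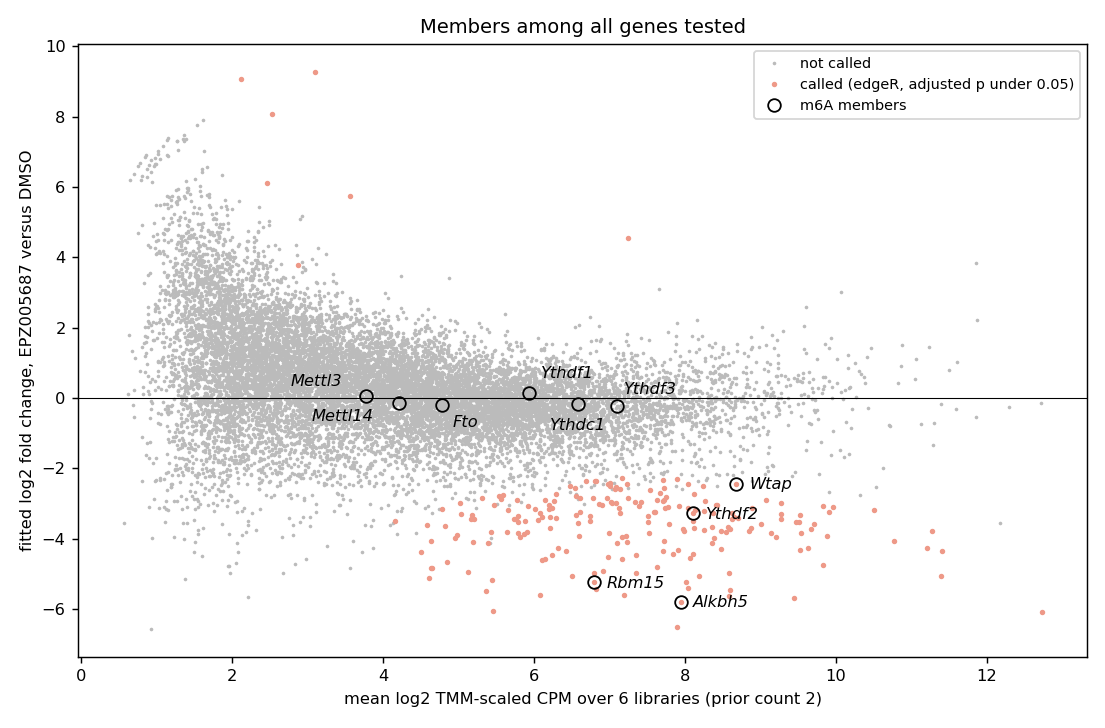
Fitted log2 fold change of EPZ005687 versus DMSO against the mean log2 TMM-scaled CPM over 6 libraries for 13744 genes, with called genes in red and the 10 members circled. Alkbh5, Rbm15, Ythdf2 and Wtap lie among the 203 genes called lower, and the other 6 members lie near 0.

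Other features of the libraries moved with treatment. The deposited column names carry 1 code for all DMSO libraries and another for all EPZ005687 libraries, and what the code stands for cannot be told apart from EPZ005687. Counts for the ribosomal RNA precursor Rn45s took 0.0538% to 0.109% of the DMSO libraries and 0.521% to 6.54% of the EPZ005687 libraries. Cytosolic ribosomal protein genes (82 genes) took 2.35% to 3.32% and 4.78% to 13.9%. Genes with at least 1 count numbered 14754 to 17747 with DMSO and 18524 to 19576 with EPZ005687, although the latter had fewer counts in each region. Xist, made in female cells, had 335 to 1498 counts with DMSO and 15 to 80 with EPZ005687, while the Y-linked genes Eif2s3y, Ddx3y, Kdm5d and Uty had 0 to 4 and 17 to 488. Of 6 primitive blood genes, the summed level in ExE was 549.5 CPM with DMSO and 28334 CPM with EPZ005687, and in P 9618 and 1369 CPM. In A it was 19.1 and 15.9 CPM. The part of these features in the members' values was not tested. In these bulk libraries, fewer cells of a type and less RNA per cell cannot be told apart.

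By a measure of likeness over the 6 libraries, the genes whose pattern was nearest to that of Alkbh5 were Actb, Notch2, Kdelr2, Rap2b and Kdm6b. The measure is the root mean square difference of log2 CPM after centring each gene on its own mean, taken over 11740 genes with a mean of 5 CPM or more. It was 0.31 for the beta-actin gene Actb, 0.40 for the receptor gene Notch2, 0.41 for the KDEL receptor gene Kdelr2, 0.48 for the small GTPase gene Rap2b and 0.53 for the H3K27 demethylase gene Kdm6b. Actb, the nearest, had 79576, 161453 and 302302 counts with DMSO against 1328, 2035 and 1310 under EPZ005687. Among the members Rbm15 came nearest, in place 20 with 0.81, then Ythdf2 in place 105 with 1.39 and Wtap in place 233 with 1.76. The other 6 members stood in place 3340 or beyond.

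Other genes of the pathway were counted in 6 lists, beside the 1.48% of all genes called lower and 0.0509% called higher. Of 5 further subunits or cofactors of the methyltransferase complex (the genes of VIRMA, ZC3H13, the ubiquitin ligase CBLL1, RBM15B and SPEN), 0 were called and the median log2 fold change was -0.36. The gene of the scaffold subunit VIRMA, listed as 1110037F02Rik, had -1.84 (SE 0.52), with 207, 356 and 591 counts with DMSO against 46, 75 and 81 under EPZ005687. Rbm15b, the paralog of Rbm15, had 0, 36 and 45 counts with DMSO against 22, 16 and 33 under EPZ005687. Unlike those of Rbm15, its arms overlapped.

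Of 12 other genes of the Mettl family, of RNA methyltransferases or of their partners, 0 were called (median -0.11). Among them was Mettl16, which methylates the U6 small nuclear RNA and the mRNA of the SAM synthetase gene Mat2a, at -1.13 (SE 0.63). The largest value in size was that of Mettl4, at -2.45 (SE 0.56). Of 7 other AlkB family genes, 6 were tested and 0 called, with a median of 0.34. Alkbh4, with 0 to 12 counts, lay below the filter. Alkbh5, by whose fall the members were chosen, was the 1 called gene among the 8 tested genes of that family, Fto included. The rest had 0 to 169 counts per library and SEs of 0.68 to 1.70, so that a 2-fold change in them was not detectable.

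Among 14 further readers and bound proteins 1 was called lower and 0 higher (median -0.59). Igf2bp1, which binds and stabilises marked transcripts, had 1510.1, 1238 and 1120.4 CPM with DMSO and 91.4, 65.0 and 34.2 CPM with EPZ005687. Its log2 fold change was -4.44 (SE 0.60). It was called under all 12 alternatives, some of which are nearly the same fit. Its paralogs had log2 fold changes of -0.17 (SE 0.72, Igf2bp2) and -1.93 (SE 0.52, Igf2bp3). Neither passed. Ythdc2, the remaining YTH gene, had 36, 17 and 8 counts with DMSO against 21, 27 and 29 under EPZ005687.

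Of 11 genes of the CCR4-NOT deadenylase, which YTHDF2 recruits to shorten poly(A) tails, 1 was called lower and 0 higher (median -0.22). This was Rqcd1, the older symbol of Cnot9, with 1006, 1003 and 790 CPM with DMSO and 191, 31.5 and 85.9 CPM with EPZ005687. Its log2 fold change was -3.50 (SE 0.66), and its call was lost with library totals, without region in the fit and with A and P only. The scaffold gene Cnot1 had -0.31 (SE 0.47). Of 9 genes of methyl donor and 2-oxoglutarate metabolism, 0 were called (median -0.37). ALKBH5 and FTO consume 2-oxoglutarate.

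**Figure D4:**
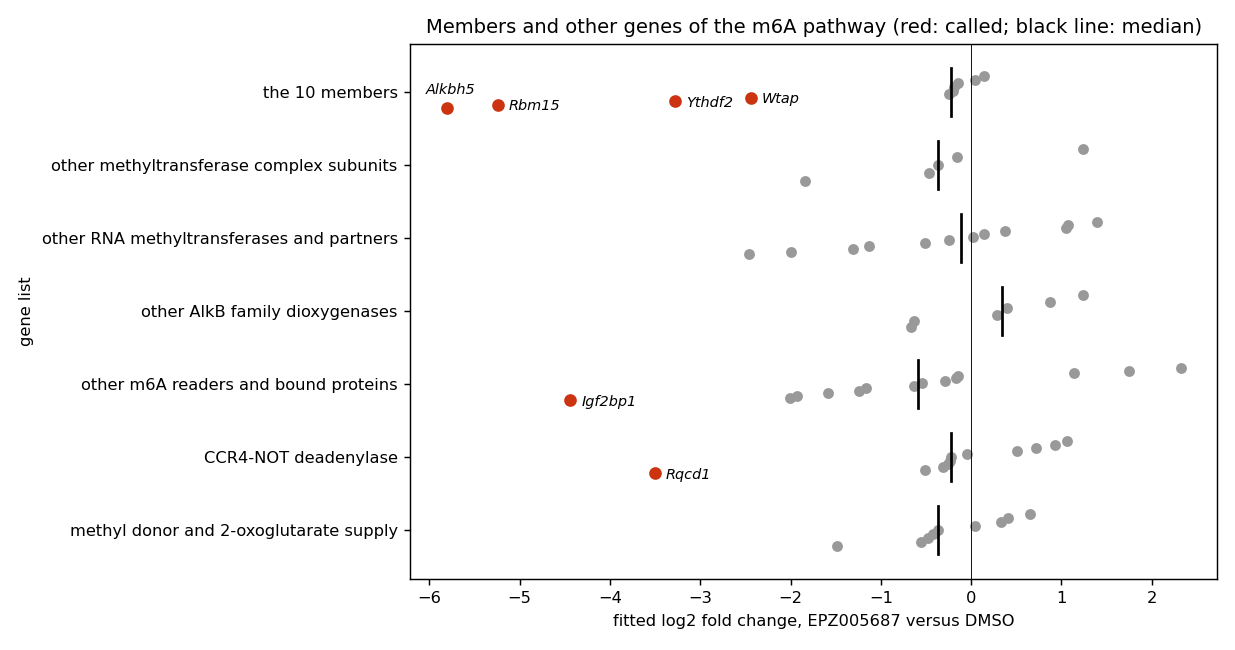
Fitted log2 fold change of EPZ005687 versus DMSO for the members and 6 lists of related genes, 1 point per tested gene, red where called by edgeR and with a black line at each median. Outside the 10 members only Igf2bp1 and Rqcd1 are red.

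The regions were compared across both arms, a contrast by which the family was not chosen. Between ExE and the average of both embryonic regions, 0 of 10 members passed (edgeR, 0 at an unadjusted p under 0.05), as did 0% of 13744 genes in either direction. DESeq2 called 0 members as well, against 0.742% of genes lower and 1.02% higher. The log2 fold changes of the members ran from -0.77 (SE 1.07) for Mettl3 to 0.82 (SE 1.10) for Mettl14, with a median of 0.07 against 0.03 over all genes tested. The smallest member p was that of Ythdf2, whose log2 fold change was -0.58 (SE 0.56, edgeR adjusted p = 0.98). Alkbh5 had 0.06 (SE 0.64, edgeR adjusted p = 0.998). This average joins a higher level in ExE with DMSO to a lower one with EPZ005687. Against A the log2 ratio was 1.15 with DMSO (interval 1.08 to 1.22) and -0.61 with EPZ005687 (-1.24 to -0.01). Against P it was 0.42 with DMSO (0.37 to 0.46) and -1.09 with EPZ005687 (-1.63 to -0.62).

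For P versus A, 0 of 10 members passed (edgeR, 0 at an unadjusted p under 0.05), again with 0% of all genes in either direction. DESeq2 called 0 members, and 0.211% of genes lower and 1.1% higher. Mettl14 had the largest log2 fold change at 1.14 (SE 1.32, edgeR adjusted p = 0.94), and without the A EPZ005687 library it was 4.63, since the comparison then rested on its 3 counts in A with DMSO. Ythdf3 followed at 0.79 (SE 0.65, edgeR adjusted p = 0.93), with 2.92 times the A level in P under EPZ005687 and nearly equal levels under DMSO (log2 ratio -0.06). Ythdf2 had -0.64 (SE 0.63, edgeR adjusted p = 0.93), where P was below A in both arms, by 0.71 and 0.58 on the log2 scale with DMSO and EPZ005687. With DMSO alone, P was below A for Rbm15 too (log2 ratio -0.61, interval -0.71 to -0.50) and above it for Alkbh5 (0.73, 0.66 to 0.81). These intervals hold counting error alone and say nothing of the spread between embryos.

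Whether EPZ005687 went with a different change in ExE than in the embryonic regions was tested with a separate term. It passed for 0 of 10 members (edgeR, 0 at an unadjusted p under 0.05), where 0% of genes had a lower and 0.0509% a higher value in ExE. DESeq2 called 0 members, and 0.0146% of genes lower and 0.102% higher. The difference was largest in size for Mettl14 at -3.19 (SE 2.10) and next for Alkbh5 at -1.66 (SE 1.504), each with an edgeR adjusted p of 1. For Rbm15 it was 0.995 (SE 1.39), the opposite sign to Alkbh5. With SEs between 1.36 and 2.42, a difference of 2-fold between the regions could not be seen in this design.

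**Figure D5:**
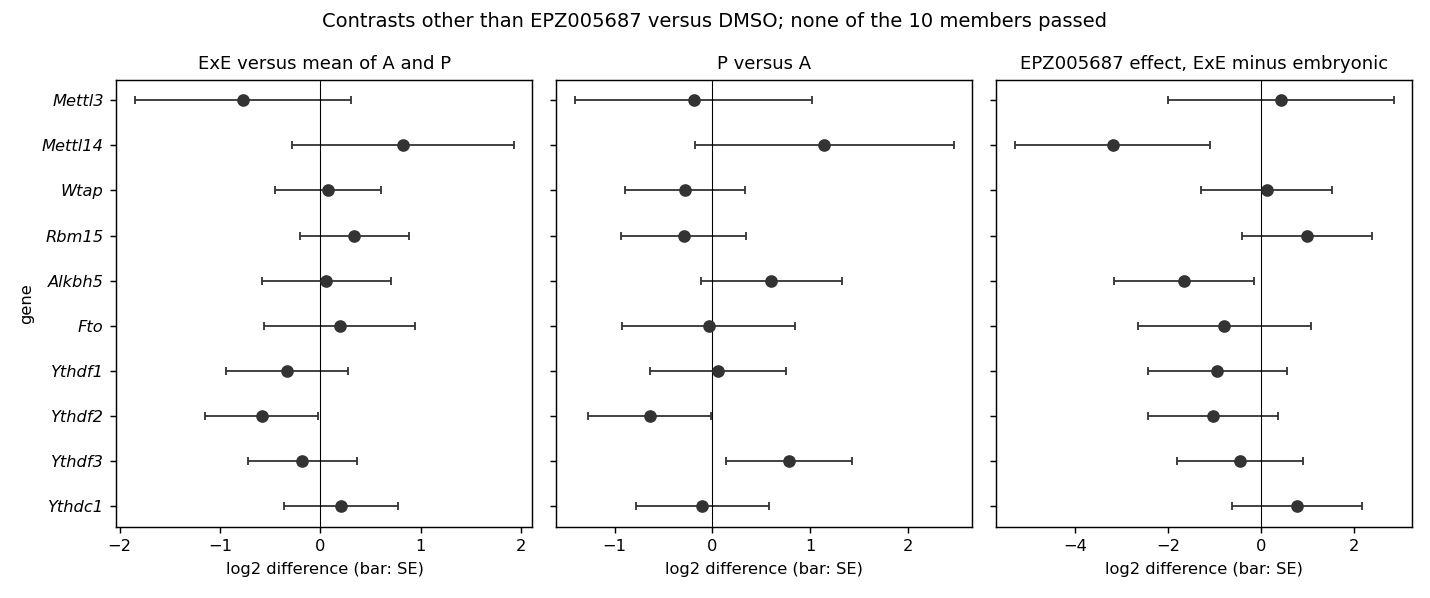
Fitted log2 differences of the members with their SE for ExE versus embryonic, for P versus A, and for the EPZ005687 effect in ExE minus that in the embryonic regions. No member passed in any of these contrasts, and the bars are widest for Mettl3 and Mettl14.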

How the data were processed

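Per the labels, RNA was polyadenylated. The authors deposited 1 table of whole-number read counts per gene and library, not normalized, as the unequal totals show. Named in the submitters' processing notes are the build mm10 and the tools BWA, TopHat2 2.0.9 and CASAVA 1.8. How reads were counted, with or without strand and on which gene models, is not given in the sources used here. Of 23154 entries, 27 held dates in place of a symbol and were left out (0.162% to 0.961% of a library's counts).

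The test was the quasi-likelihood test of edgeR 4.0.16 in R 4.3.3, after TMM scaling, on the 13744 genes that reached 10 counts in 2 libraries or more. Region and treatment were additive terms with 2 residual degrees of freedom, or 1 with a term for treatment in ExE. With so few degrees of freedom the spread is taken largely from all genes together. The labels do not say that libraries are separate cultures, so p-values measure only the spread between these 6 libraries. P-values were adjusted over all genes tested by Benjamini-Hochberg, with a threshold of 0.05. SE is the log2 fold change over the square root of F. Ratios within a region used a prior count of 2 and exact conditional binomial 95% intervals, which cover counting error only. DESeq2 1.42.0, DESeq2 size factors, library totals, no filter, a fit without the other factor and leaving out each library were the alternatives. With 1 library left out, 1 residual degree of freedom is left. The other library of its region is then fitted exactly and adds nothing to the treatment term. Leaving out either library of a region thus gives nearly the same treatment value, and for ExE nearly that of A and P only. The steps were tested on simulated data.

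Members, lists and the rule for named genes were chosen with earlier results of these data known. The rule names the 10 members, called genes and the largest values of 6 lists, and the 5 genes most like Alkbh5. It was not kept to in full. Mettl16, Alkbh4, Igf2bp2, Ythdc2 and Cnot1 were named outside it. Some larger values of the same lists went unnamed above, among them Fxr2 at 2.32 (SE 1.07), Snd1 at -2.01 (SE 0.51) and Mettl2 at -2.00 (SE 0.60). Coordinates and promoters are from RefSeq (GRCm38.p6).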

Additional observations from a re-analysis of the deposited data

How the results depend on the processing

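For EPZ005687 versus DMSO, 210 genes were called in all, against 572 with DESeq2, 109 with library totals, 349 without a filter on low counts, 89 with A and P only, and 170 to 330 with 1 library left out. Of the 10 members 4 were called, against 2 with A and P only and 2 to 4 with 1 library left out. For ExE versus embryonic 0 genes were called, against 242 with DESeq2, 210 without a filter and 0 to 388 with 1 library left out. For P versus A 0 genes were called, against 180 with DESeq2, 140 without a filter, 24 with A and P only and 0 to 230 with 1 library left out. For the difference in treatment effect 7 genes were called, against 16 with DESeq2 and 0 with library totals. No member was called in these 3 contrasts under any alternative. In ExE versus embryonic the log2 fold change turned to -0.027 for Alkbh5 with library totals and to -0.12 for Rbm15 without treatment in the fit. In P versus A that of Ythdf1 turned to -0.0023 with DESeq2, -0.0021 with its size factors, -0.23 with library totals and -0.022 with A and P only. With 1 library left out, ExE versus embryonic ran from -0.87 to 0.75 for Alkbh5, -0.22 to 0.53 for Fto, -0.99 to 2.33 for Mettl14, -0.20 to 0.83 for Rbm15, -0.021 to 0.14 for Wtap, -0.24 to 0.65 for Ythdc1, -0.83 to 0.072 for Ythdf1 and -0.46 to 0.21 for Ythdf3. P versus A ran from -0.62 to 0.63 for Fto, -0.45 to 4.63 for Mettl14, -0.75 to 0.25 for Mettl3, -0.76 to 0.35 for Rbm15, -0.85 to 0.79 for Ythdc1 and -0.62 to 0.56 for Ythdf1. The cause of these changes was not tested. No paired analysis was possible because the RNA labels carry no replicate number, though the libraries of both arms are matched by region, which is a term of the fit. Leaving out a library leaves no residual degrees of freedom for the difference in treatment effect, so that was not run. Depth limits Mettl3, Fto and Mettl14 most, the members with the fewest counts.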
